A study of Mus musculus with 28 samples.

Results

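The cell cycle and DNA replication genes described here are 56 named genes of the 24421 in each library's count file, taken by name from a list that was drawn up with earlier results of these data known, and divided into 17 regulators of the G1 phase, 17 genes of DNA replication and 22 genes of mitosis. The libraries are bulk RNA-seq of dendritic cells sorted from the spleens of untreated C57Bl/6 mice aged 6 to 12 weeks. All mice carried Irf8fl/fl, that is loxP-flanked copies of Irf8, a transcription factor gene of the dendritic cell and monocyte lineages. Type 1 conventional dendritic cells sorted as CD24+ (cDC1_WT), type 2 conventional dendritic cells sorted as CD172a+ (cDC2_WT) and plasmacytoid dendritic cells (pDC_WT) came from Irf8fl/fl mice without Cre, with 8 libraries each. The group called pDC_TG, with 4 libraries, holds plasmacytoid dendritic cells of Irf8fl/fl Itgax-cre mice, in which regulatory sequence of the CD11c gene Itgax drives the Cre recombinase, so that loss of Irf8 follows the activity of that sequence and is not limited to plasmacytoid cells. Nothing in the labels ties a library to a litter or a day, and p-values measure the spread between these libraries.

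Passage through G1 is governed by D-type cyclins with CDK4 or CDK6, which phosphorylate the retinoblastoma protein and release E2F transcription factors, while INK4 and CIP/KIP proteins inhibit the kinases. E2F factors turn on genes of the replication machinery, among them the MCM helicase subunits that are loaded at origins and the enzymes that supply deoxynucleotides. Genes of mitosis are induced later, through MYB and FOXM1 complexes, and include cyclin B, CDK1, Aurora and Polo kinases and kinetochore proteins. In spleen, conventional dendritic cells are known to include dividing cells, whereas mature plasmacytoid dendritic cells are largely non-dividing.

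Each library held 17299285 to 30787679 reads counted in genes. All 56 genes passed the filter on low counts, as did 13159 genes in all. Levels are CPM, the reads of a gene scaled to library size with TMM factors, and an adjusted p below 0.05 over all tested genes in edgeR's quasi-likelihood test (Benjamini-Hochberg) is the threshold for a call. Irf8 itself averaged 6144 ± 459 CPM (SD, n = 8) in pDC_WT and was at 1490, 1402, 1166 and 1787 CPM in pDC_TG replicates 1 to 4, a log2 fold change of -2.07 ± 0.13 (SE; edgeR adjusted p = 4.43e-13). The counts cover the whole gene and not the deleted stretch alone. Summed over 10 marker genes of plasmacytoid cells, pDC_TG reached 9957 to 13299 CPM and pDC_WT 10030 to 13313, against at most 277 in either conventional group. Single markers diverged within these sums. Klk1 was at 183 to 252 CPM in pDC_TG and 685 to 1305 in pDC_WT, and Cox6a2 at 634 to 1359 and 271 to 517. Of the 10, 1 was called higher and 2 lower in pDC_TG, with and without replicate 4. The summed markers of cDC1 reached 2145 to 2832 CPM in cDC1_WT, and those of cDC2 reached 2447 to 3028 CPM in cDC2_WT. Both sums were also lower in pDC_TG than in pDC_WT without overlap, at 32.1 to 40.9 against 111 to 177 CPM for cDC1 markers and 1035 to 1247 against 1329 to 2107 CPM for cDC2 markers. Single markers went both ways. Of 6 cDC1 markers 1 was called higher and 3 lower, and 1 and 2 without replicate 4. Of 8 cDC2 markers 2 were higher and 2 lower in both fits. The shares of all genes tested were 7.72% higher and 7.04% lower, and 5.89% and 5.84% without replicate 4. The part of these markers in the results was not tested.

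1 library stood apart. In pDC_TG replicate 4 the summed level of 10 neutrophil genes was 203 CPM. Replicates 1 to 3 had sums between 1.46 and 7.35 CPM and pDC_WT had sums between 1.80 and 5.19, with 72.7 to 184 CPM in cDC2_WT and 1.13 to 27.6 in cDC1_WT. Each of the 10 was above every other plasmacytoid library. S100a8, one of these neutrophil genes, was at 57.7 CPM there and at most 2.03 in the others. Of the 6 genes of dividing granulocyte precursors, Elane was at 0.511, Mpo at 0.16, Fcnb at 0.702 and Prtn3 at 0.287 CPM, and Ctsg and Ms4a3 were at 0. Elane, Mpo and Fcnb were at 0 in all other plasmacytoid libraries. The part of these cells in the cell cycle results was not tested. Counts of members called in pDC_TG are therefore given with and without replicate 4. Lymphoid lists also differed. The B cell list had sums of 48.2 to 73.6 CPM in pDC_TG and 5.42 to 38.3 in pDC_WT, and the T cell list 134 to 199 and 61.8 to 120 CPM. The NK cell list had sums of 3.68 to 5.36 and 0.43 to 2.38 CPM. With all libraries, the genes of the B cell list called higher were Cd22 and Fcer2a. Those of the T cell list were Cd5, Lck and Tcf7, and that of the NK cell list was Klre1. Without replicate 4, 2, 3 and 0 genes of the B, T and NK cell lists were called higher. The T cell gene Cd3e was near 0 in both groups (0.359 ± 0.484 CPM in pDC_WT, n = 8, and 0.496 ± 0.578 in pDC_TG, n = 4, SD). The B cell gene Cd79a ranged from 1.06 to 16.7 CPM in pDC_WT and from 1.36 to 6.06 in pDC_TG. The part of these lymphoid lists in the results was likewise not tested.

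Promoter windows are shown for 3 replication and 3 mitosis members that were called higher in pDC_TG, picked after their values were seen. Only called members whose window held the motif marked below were eligible, so the printed matches follow from the choice. Where a gene had several windows, the one with most matches was taken. Rrm2 and Birc5, called but without such a match, were passed over, and Ccna2, also called, had no window. The windows run from 250 bases before to 50 after the start of the gene, are RefSeq sequences of build GRCm38.p6, and are written 5′ to 3′ on the strand of the gene. Capitals mark an E2F motif (TTTCCCGC, TTTGGCGC, TTTCGCGC or TTTGCCGC) in the replication genes and the cell cycle gene homology region motif TTTGAA in the mitosis genes, searched on both strands.
Mcm7 (chr5:138171834-138172133, minus strand): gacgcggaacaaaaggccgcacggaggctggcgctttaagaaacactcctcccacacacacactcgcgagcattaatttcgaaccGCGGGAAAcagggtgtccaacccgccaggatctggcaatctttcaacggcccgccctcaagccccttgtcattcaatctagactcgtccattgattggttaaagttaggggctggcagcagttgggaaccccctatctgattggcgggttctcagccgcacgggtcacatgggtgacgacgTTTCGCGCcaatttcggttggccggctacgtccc
Mcm6 (chr1:128359656-128359955, minus strand): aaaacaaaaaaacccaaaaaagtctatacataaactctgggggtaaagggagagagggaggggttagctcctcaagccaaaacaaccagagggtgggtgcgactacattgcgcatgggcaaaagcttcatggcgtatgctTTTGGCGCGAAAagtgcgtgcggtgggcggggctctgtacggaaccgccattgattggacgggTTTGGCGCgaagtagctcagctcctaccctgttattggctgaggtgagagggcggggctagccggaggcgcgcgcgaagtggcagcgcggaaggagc
Mcm5 (chr8:75109259-75109558, plus strand): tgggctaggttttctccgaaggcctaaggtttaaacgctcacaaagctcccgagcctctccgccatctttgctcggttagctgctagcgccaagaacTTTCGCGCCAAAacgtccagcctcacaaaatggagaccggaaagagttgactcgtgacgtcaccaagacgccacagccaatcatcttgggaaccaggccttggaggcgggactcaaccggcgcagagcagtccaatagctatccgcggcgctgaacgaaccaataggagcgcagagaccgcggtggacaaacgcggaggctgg
Ube2c (chr2:164769679-164769978, plus strand): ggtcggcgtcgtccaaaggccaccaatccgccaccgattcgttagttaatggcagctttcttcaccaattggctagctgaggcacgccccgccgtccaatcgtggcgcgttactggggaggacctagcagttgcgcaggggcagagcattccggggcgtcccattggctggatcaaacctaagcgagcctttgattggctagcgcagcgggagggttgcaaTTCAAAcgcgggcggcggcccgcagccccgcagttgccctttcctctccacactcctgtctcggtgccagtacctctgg
Cenpa (chr5:30666636-30666935, plus strand): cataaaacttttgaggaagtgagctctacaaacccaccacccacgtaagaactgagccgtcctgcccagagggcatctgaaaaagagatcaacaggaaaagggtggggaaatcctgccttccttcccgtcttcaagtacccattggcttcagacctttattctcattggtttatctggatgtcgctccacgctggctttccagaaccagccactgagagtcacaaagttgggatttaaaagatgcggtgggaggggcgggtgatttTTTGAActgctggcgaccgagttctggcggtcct
Plk1 (chr7:122159185-122159484, plus strand): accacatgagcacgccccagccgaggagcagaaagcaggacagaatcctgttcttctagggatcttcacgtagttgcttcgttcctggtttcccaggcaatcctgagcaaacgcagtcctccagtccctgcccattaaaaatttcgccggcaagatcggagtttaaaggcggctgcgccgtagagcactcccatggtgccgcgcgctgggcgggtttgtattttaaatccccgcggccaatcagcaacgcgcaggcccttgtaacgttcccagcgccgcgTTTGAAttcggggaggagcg
In Mcm6 and Mcm5, 2 matches on opposite strands overlap and form 1 run of capitals. A window was found for 45 of the 56 members. Genes were counted as having a match if any of their windows held it. A gene with more windows was therefore searched over more sequence. An E2F match was found for 7 of 15 replication, 3 of 13 G1 and 1 of 17 mitosis members with a window. The same held for 2.6% of all 27025 genes with a window (704). The TTTGAA motif was found for 11 of 17 mitosis, 2 of 15 replication and 2 of 13 G1 members, against 20.2% of all genes. The CCAAT box was searched as CCAAT on both strands. It was found for 14 of 17 mitosis, 11 of 15 replication and 7 of 13 G1 members, against 41.1% of all genes. A match of letters is a description and shows no binding.

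The wild-type populations were compared first, to show where each class of gene stood in the 3 normal cell types. Nearly the whole replication and mitosis lists were higher in both conventional groups than in plasmacytoid cells, whereas the G1 regulators split in cDC1_WT and were mostly higher in cDC2_WT. In cDC1_WT versus pDC_WT, 47 of the 56 members were higher and 4 lower. Of all genes tested, 30.6% were higher and 30.3% lower in that comparison. In cDC2_WT versus pDC_WT, 51 were higher and 2 lower, with 28.8% and 28.3% of all genes. The median log2 fold change of the members was 2.87 and 2.79, against -0.03 and -0.01 over all genes tested. In bulk RNA, fewer dividing cells and less of these transcripts per cell cannot be told apart.

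**Figure D1:**
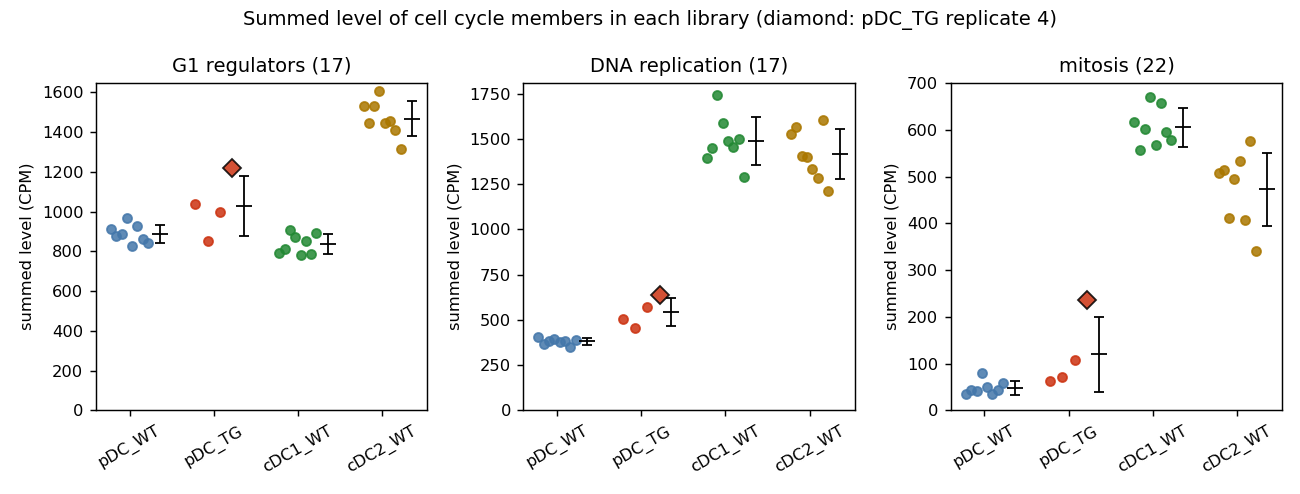
Summed CPM of the members of each class in every library, by group, with the mean and SD of the group beside the points (n = 8, and n = 4 for pDC_TG). For mitosis, pDC_WT libraries lie between 34.2 and 80.2 CPM and the conventional groups between 341 and 669 CPM. Replicate 4 of pDC_TG, drawn as a diamond, is at 236 CPM.

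Of the 17 G1 regulators, 9 were higher and 4 lower in cDC1_WT than in pDC_WT (median log2 fold change 0.28), and 13 were higher and 2 lower in cDC2_WT (median 1.12). Cdkn2d, which encodes the INK4 inhibitor p19, was among the lower ones in both: it ranged over 133, 144 and 157 CPM (lowest, median and highest) in pDC_WT, 8.69, 12.4 and 16.8 in cDC1_WT and 22.2, 25.3 and 43.5 in cDC2_WT. No library of pDC_WT overlapped either conventional group. Its log2 fold change was -3.50 ± 0.14 in cDC1_WT and -2.39 ± 0.14 in cDC2_WT versus pDC_WT (SE; edgeR adjusted p = 3.06e-19 and 1.03e-15). Cdkn2c, the gene of the related inhibitor p18, was also lower in both, at 53.4 ± 11.6 CPM in pDC_WT, 20.1 ± 4.22 in cDC1_WT and 29.4 ± 2.55 in cDC2_WT (SD, n = 8 each). Cdkn1a, the p53-induced inhibitor p21, went the other way, with 3.67, 4.72 and 9.08 CPM in pDC_WT, 49.4, 68.8 and 104 in cDC1_WT and 46.2, 87.5 and 124 in cDC2_WT. It was higher by 3.73 ± 0.24 and 4.04 ± 0.24 on the log2 scale (edgeR adjusted p = 2.38e-14 and 5.45e-15), again with no overlap. Per kilobase of exon, Cdkn2d made up 76.4% ± 3.67 of the summed level of the 4 inhibitor genes Cdkn1a, Cdkn1b, Cdkn2c and Cdkn2d in pDC_WT and 18.5% ± 3.91 in cDC1_WT, while Cdkn1a made up 1.26% ± 0.448 and 45.2% ± 6.55 (SD, n = 8).

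The D-type cyclins, which partner CDK4 and CDK6, separated the 2 conventional groups. Ccnd1 was at 57.3, 65.0 and 81.5 CPM in cDC1_WT, 119, 175 and 224 in pDC_WT and 258, 345 and 462 in cDC2_WT (lowest, median, highest), and the 3 ranges did not overlap. Ccnd2 was at 12.6 ± 3.46 CPM in cDC1_WT, 21.2 ± 6.26 in pDC_WT and 115 ± 31.0 in cDC2_WT. In cDC2_WT versus cDC1_WT, Ccnd1 was higher by 2.40 ± 0.17 and Ccnd2 by 3.19 ± 0.26 on the log2 scale (SE; edgeR adjusted p = 3.31e-13 and 1.38e-11). Ccnd3 was at 148 ± 19.8, 192 ± 23.4 and 195 ± 37.8 CPM in pDC_WT, cDC1_WT and cDC2_WT, and was higher than in pDC_WT by 0.38 ± 0.13 and 0.40 ± 0.13 on the log2 scale (edgeR adjusted p = 0.0151 and 0.0104). Per kilobase of exon, Ccnd3 gave the largest share of the 3 D cyclins in cDC1_WT (58.1% ± 2.81), and Ccnd1 in cDC2_WT (68.7% ± 2.34) and pDC_WT (65.2% ± 4.23, SD, n = 8 each). Exons of Ccnd1 overlap those of another gene over 23.4% of their length, and the reads carry no strand.

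Of the E2F genes, E2f2 showed the widest range. It was at 0.0537, 1.15 and 2.24 CPM in pDC_WT, 8.49, 13.5 and 16.96 in cDC1_WT and 57.5, 81.9 and 96.9 in cDC2_WT, with no overlap between the 3. Its log2 fold change was 3.44 ± 0.31 in cDC1_WT and 6.05 ± 0.34 in cDC2_WT versus pDC_WT (edgeR adjusted p = 4.69e-11 and 8.45e-16). E2f1, the prototype activator, was at 36.2 ± 5.39, 39.8 ± 6.34 and 44.8 ± 5.73 CPM in pDC_WT, cDC1_WT and cDC2_WT. It was not called in cDC1_WT versus pDC_WT (0.14 ± 0.11, edgeR adjusted p = 0.297) and was higher in cDC2_WT (0.31 ± 0.11, 0.019). The repressor E2f8 was at 0 in 4 of 8 pDC_WT libraries and at 8.92 ± 3.83 and 7.92 ± 4.22 CPM in cDC1_WT and cDC2_WT. The retinoblastoma gene Rb1 and its relative Rbl1 were higher in cDC2_WT than in cDC1_WT, at 131 ± 18.5 against 47.1 ± 11.8 CPM and 82.2 ± 6.23 against 51.2 ± 10.5 CPM. The E cyclin genes Ccne1 and Ccne2, which partner CDK2 at entry into S phase, and Cdk2 itself were higher in both conventional groups than in pDC_WT.

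**Figure D2:**
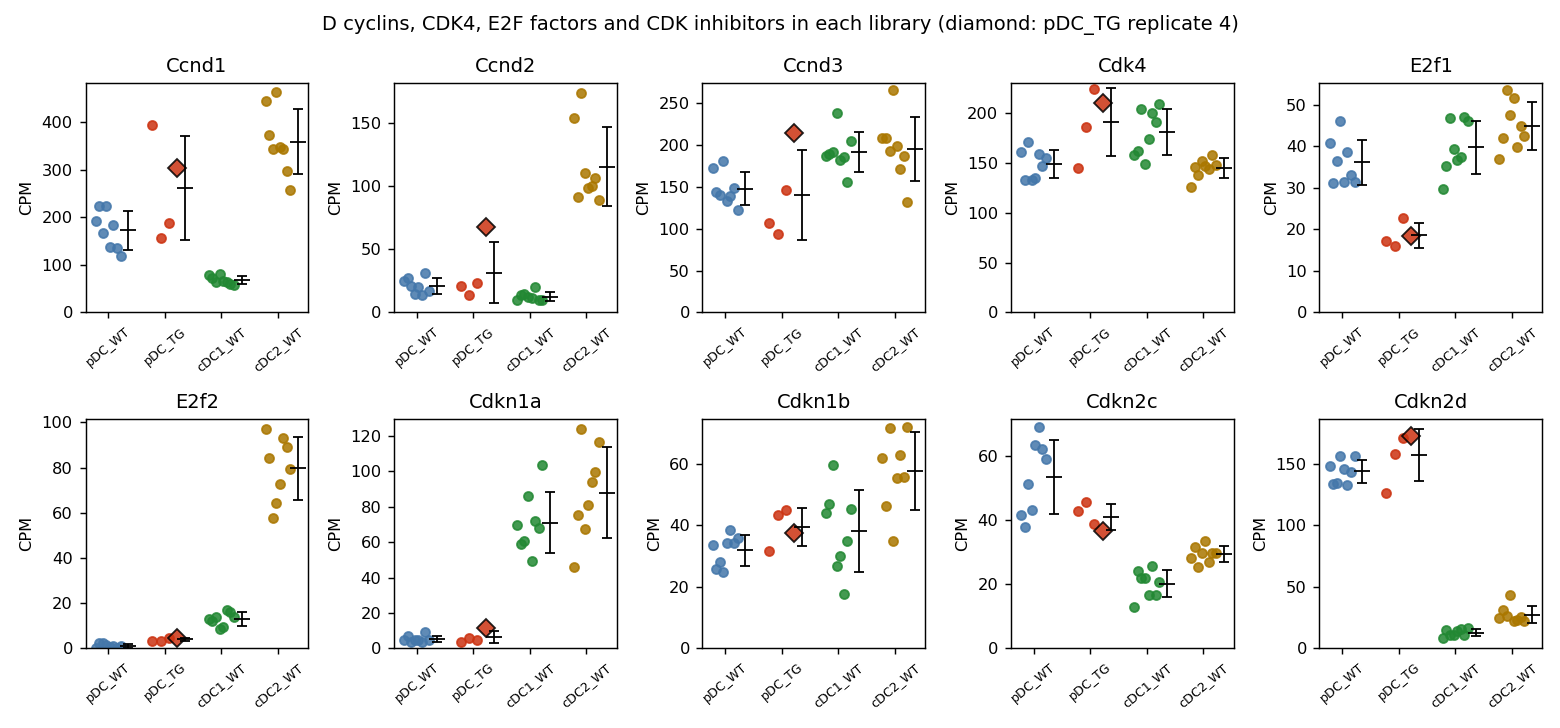
Level in CPM of 10 G1 regulators in every library, by group, with the mean and SD beside the points and pDC_TG replicate 4 as a diamond. Cdkn2d is highest in the plasmacytoid groups, Cdkn1a in the conventional groups and E2f2 in cDC2_WT, while E2f1 is lowest in pDC_TG.

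All 17 replication genes were higher in cDC1_WT and in cDC2_WT than in pDC_WT. The median log2 fold change was 2.15 and 1.99. Mcm7, a subunit of the replicative helicase, was at 27.6, 30.1 and 33.4 CPM in pDC_WT, 107, 134 and 161 in cDC1_WT and 123, 149.7 and 167 in cDC2_WT (lowest, median, highest). Its difference from pDC_WT was 2.13 ± 0.09 and 2.28 ± 0.09 on the log2 scale (SE; edgeR adjusted p = 2.08e-18 and 4.86e-19). The other helicase genes Mcm2 to Mcm6 were higher by 1.52 (Mcm4) to 3.32 (Mcm5) in cDC1_WT and by 1.65 (Mcm2) to 3.09 (Mcm5) in cDC2_WT. Cdc45, which joins the MCM ring to form the active helicase, was at 2.13 ± 0.641 CPM in pDC_WT, 29.9 ± 8.84 in cDC1_WT and 16.0 ± 2.07 in cDC2_WT. Rrm2, the S-phase subunit of ribonucleotide reductase, moved most within the class, from 2.25 ± 1.74 CPM in pDC_WT to 74.8 ± 13.4 and 89.2 ± 11.5 CPM, whereas the other subunit gene Rrm1 went from 53.4 ± 13.3 to 103 ± 19.5 and 102 ± 15.7 CPM. The sliding clamp gene Pcna was high in all groups, at 78.3 ± 7.68 CPM in pDC_WT, 157 ± 13.9 in cDC1_WT and 145 ± 16.6 in cDC2_WT (SD, n = 8 each).

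Of the 22 mitosis genes, 21 were higher in each conventional group than in pDC_WT, with a median log2 fold change of 3.91 and 3.65. Cdk1, the mitotic kinase, was at 0.665, 1.43 and 2.85 CPM in pDC_WT, 33.4, 40.3 and 45.5 in cDC1_WT and 14.6, 22.2 and 28.6 in cDC2_WT, with no overlap between the 3 groups. The differences from pDC_WT were 4.58 ± 0.27 and 3.75 ± 0.26 on the log2 scale (SE; edgeR adjusted p = 1.85e-15 and 1.12e-13). Birc5, which encodes survivin of the chromosomal passenger complex, was at 0.871 ± 0.577 CPM in pDC_WT, 36.04 ± 5.05 in cDC1_WT and 24.2 ± 7.06 in cDC2_WT. Ccna2, cyclin A2, was at 2.35 ± 1.96, 55.5 ± 8.63 and 50.1 ± 8.77 CPM, and Aurkb, the kinase of the passenger complex, at 4.71 ± 2.47, 34.9 ± 5.88 and 30.8 ± 11.6 CPM. The exception was Foxm1, a transcription factor of the G2/M genes, at 8.94 ± 3.31, 13.3 ± 6.01 and 7.37 ± 3.51 CPM (edgeR adjusted p = 0.117 and 0.479 versus pDC_WT). Mki67, the common marker of dividing cells, was low in these libraries even in the conventional groups, at 9.12 ± 5.85 CPM in cDC1_WT and 9.19 ± 6.18 in cDC2_WT against 1.24 ± 1.07 in pDC_WT (SD, n = 8 each).

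Between the conventional groups, 9 members were higher and 7 lower in cDC2_WT than in cDC1_WT, where 23.4% and 22.8% of all genes tested were higher and lower. The 9 higher members were all G1 regulators: Ccnd1, Ccnd2, E2f2, Rb1, Rbl1, Cdk2, Cdkn1b, Cdkn2c and Cdkn2d. The 7 lower were Cdk4, the replication genes Cdc45 and Gins2 and the mitosis genes Cdk1, Cdc20, Cenpa and Foxm1. Cenpa, the centromeric histone, was at 54.0 ± 7.58 CPM in cDC1_WT and 29.7 ± 5.06 in cDC2_WT (SD, n = 8; log2 fold change -0.86 ± 0.18, SE, edgeR adjusted p = 1.54e-04). Cdc20, an activator of the anaphase-promoting complex, was at 36.3 ± 4.43 and 17.2 ± 3.89 CPM. In the replication and mitosis classes no member was higher in cDC2_WT by edgeR or DESeq2, with 2 replication and 0 mitosis genes at an unadjusted p under 0.05. The count of lower members was 12 in a fit of these 2 groups alone, 2 with WT replicates 1 to 4 and 3 with WT replicates 5 to 8. Exons of Gins2 overlap another gene over 67.3% of their length, so its reads are uncertain.

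**Figure D3:**
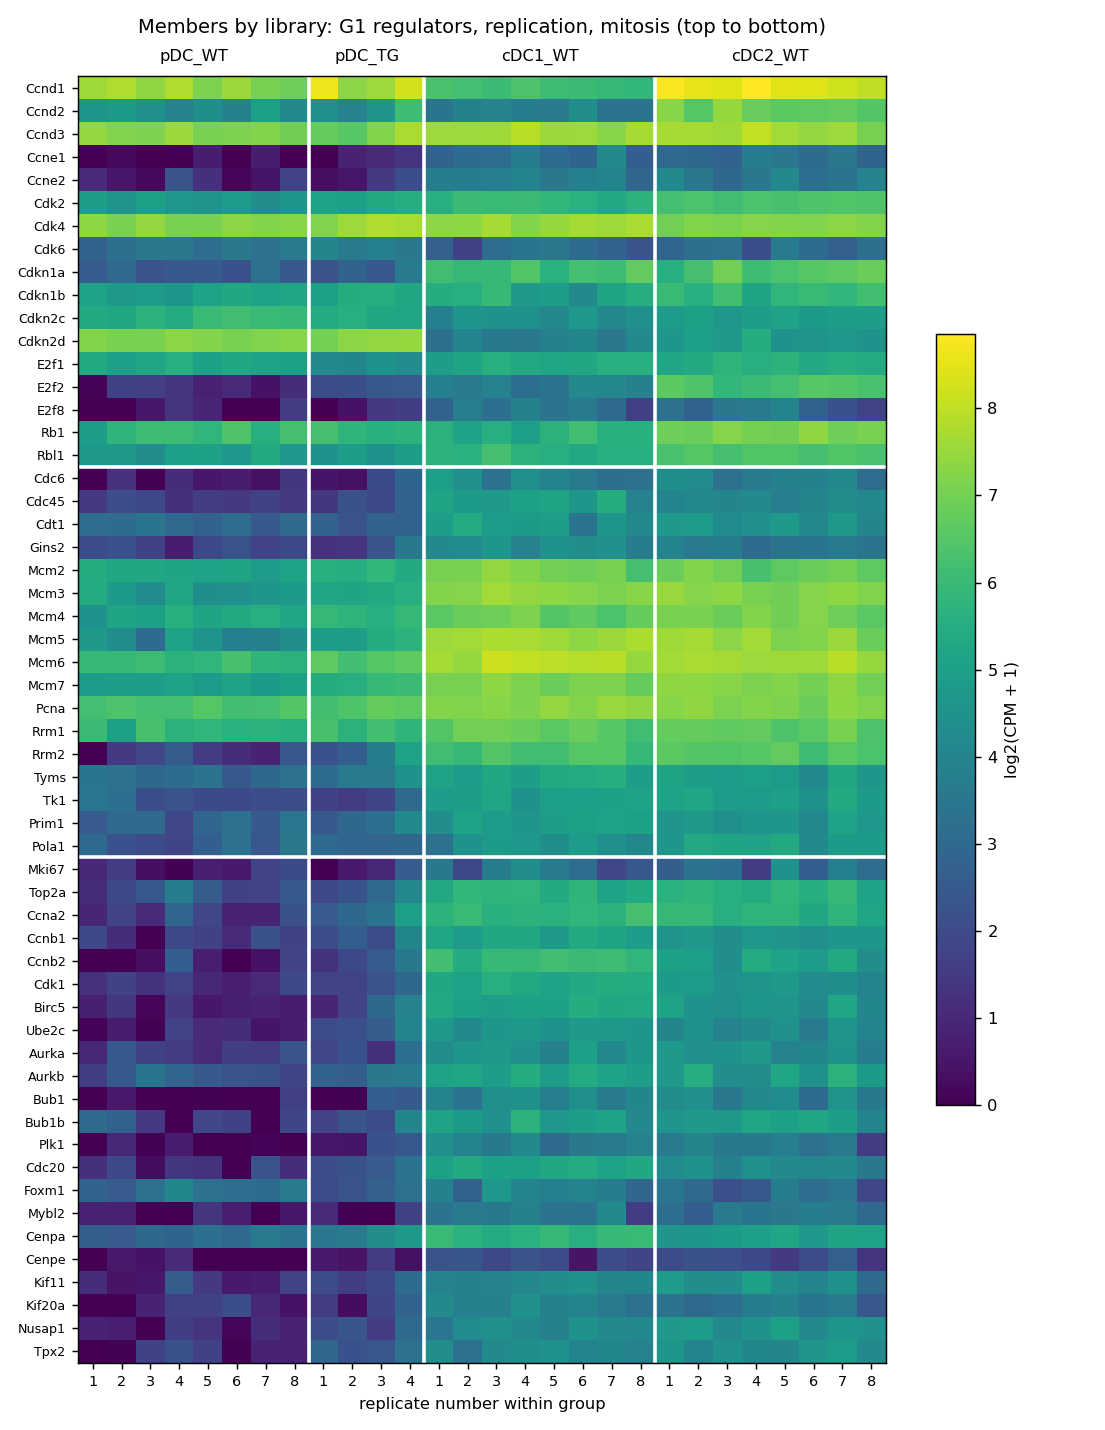
Heat map of log2(CPM + 1) for the 56 members (rows, in the 3 classes divided by white lines) in the 28 libraries (columns, by group and replicate number). Dark blue stands for low and yellow for high levels. Most mitosis rows are dark in pDC_WT, lighter in pDC_TG replicate 4 and lighter still in cDC1_WT and cDC2_WT.

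The comparison of pDC_TG with pDC_WT sets plasmacytoid cells of mice with Irf8fl/fl and Itgax-cre against those of Irf8fl/fl mice without Cre. Loss of Irf8 in the plasmacytoid cells, loss in other cells that express Cre and Cre itself cannot be told apart. With all libraries, 24 of the 56 members were higher and 1 was lower in pDC_TG, where 7.72% of all genes tested were higher and 7.04% lower. The higher members were 5 of 17 G1 regulators, 7 of 17 replication genes and 12 of 22 mitosis genes, and the lower one was E2f1. The median log2 fold change was 0.74 (G1 0.31, replication 0.55, mitosis 1.49), against 0 over all genes tested. Without pDC_TG replicate 4, 13 members were higher and 2 lower, where 5.89% and 5.84% of all genes tested were so called, and the median log2 fold change of the members was 0.43 (0.08, 0.39 and 0.88). All 13 were among the 24. Libraries of the 2 groups did not overlap for 4 members that were higher (E2f2, Mcm7, Tpx2 and Ube2c) and for E2f1, which was lower. Such separation held for 4.9% and 4.81% of all genes tested. Without replicate 4, Mcm2 also did not overlap among the higher and Tk1 among the lower members, and the shares of all genes tested were 5.9% and 5.92%.

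These calls rest on an estimate of spread shared with the conventional groups, in which the mitosis genes varied far less. The median coefficient of variation of the 22 mitosis genes was 84.8% in pDC_WT and 83.4% in pDC_TG, against 20.5% in cDC1_WT and 26.5% in cDC2_WT. When the conventional groups were left out of the fit, 12 members were higher and 1 lower, where 6.92% and 8.09% of all genes tested were called. The 12 were Cdk2, Cdk4, Mcm2, Mcm4, Mcm5, Mcm6, Mcm7, Rrm2, Birc5, Ccna2, Cenpa and Ube2c. In the same fit without pDC_TG replicate 4, an alternative chosen after seeing the data, 3 members were higher (Mcm2, Mcm6 and Mcm7) and E2f1 was lower, where 5.41% and 6.76% of all genes tested were called. No mitosis gene was called there, with 4 higher and 1 lower at an unadjusted p under 0.05.

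**Figure D4:**
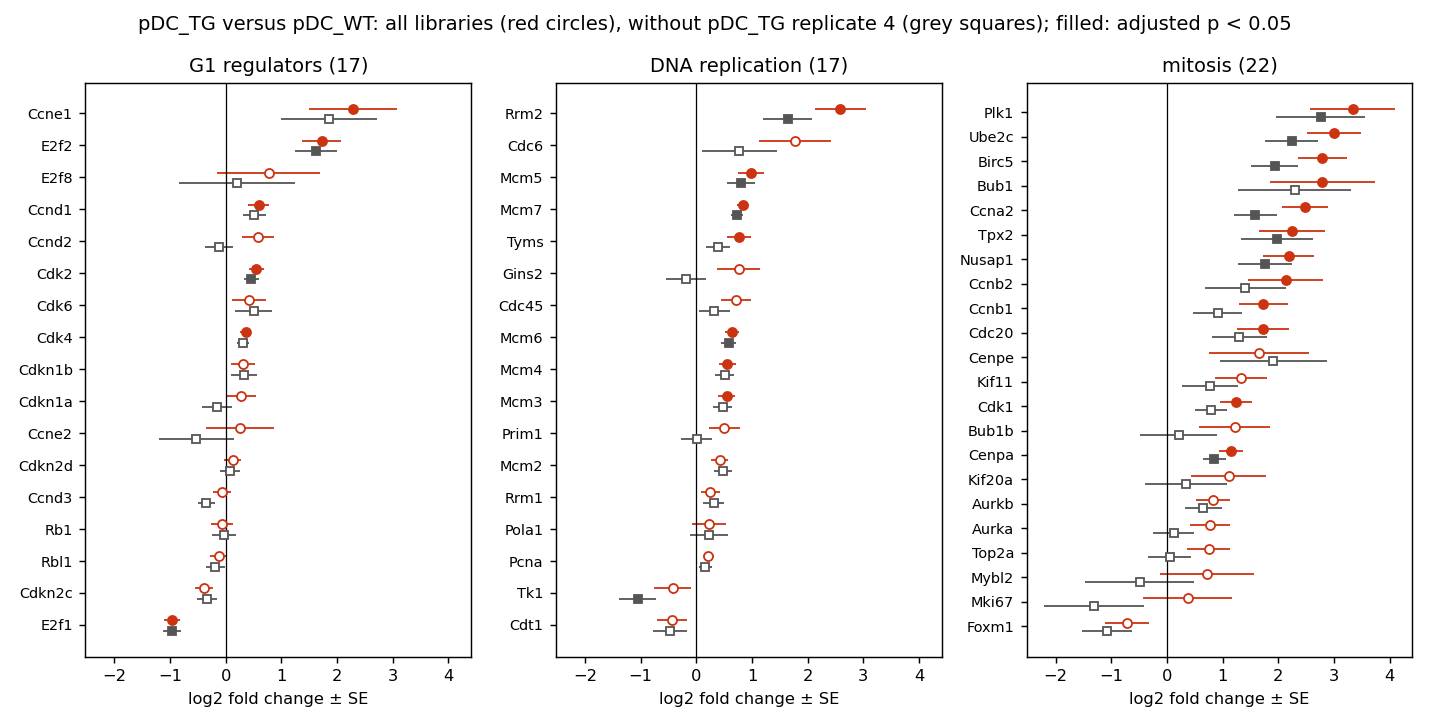
Log2 fold change with SE of every member in pDC_TG versus pDC_WT, in the fit of all groups, with all libraries (red circles) and without pDC_TG replicate 4 (grey squares). Filled symbols are called at an adjusted p below 0.05. E2f1 is near -0.96 in both, and most mitosis genes lie closer to 0 without replicate 4.

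E2f1 was the member that fell in pDC_TG. It was at 17.2, 15.9, 22.7 and 18.5 CPM in pDC_TG replicates 1 to 4 and at 31.2, 34.8 and 46.0 CPM in pDC_WT (lowest, median, highest), so that every pDC_TG library was below every pDC_WT library. The log2 fold change was -0.96 ± 0.14 (SE; edgeR adjusted p = 1.09e-05), and -0.96 ± 0.16 (1.02e-04) without replicate 4. In the fit of the pDC libraries alone without replicate 4 it was -0.95 (edgeR adjusted p = 0.00165). E2f2, the relative with the same activator role, went the other way, at 3.11, 3.40, 4.53 and 4.79 CPM against 0.0537, 1.15 and 2.24 CPM. Its log2 fold change was 1.72 ± 0.35 (edgeR adjusted p = 5.91e-04), and 1.62 ± 0.38 (0.00387) without replicate 4. E2f2 was not called when the pDC libraries were fitted alone, with edgeR adjusted p-values of 0.0848 with and 0.183 without replicate 4. The level of E2f2 in pDC_TG stayed below every library of cDC1_WT and cDC2_WT.

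Cdk2, the kinase of cyclins E and A, was at 34.4, 31.4, 40.8 and 44.5 CPM in pDC_TG and at 19.2, 25.1 and 32.0 CPM in pDC_WT, with 1 pDC_TG library inside the range of pDC_WT. It rose by 0.55 ± 0.13 (SE; edgeR adjusted p = 0.00314) and by 0.46 ± 0.14 (0.0295) without replicate 4. Cdk4 was at 145, 186, 223 and 209 CPM against 132, 150.3 and 170 CPM. Its rise of 0.36 ± 0.10 (edgeR adjusted p = 0.0153) was no longer called without replicate 4 (0.31 ± 0.11, 0.0775) or without replicate 3. Ccnd1 was at 394, 157, 188 and 303 CPM against 119, 175 and 224 CPM, with replicates 2 and 3 inside the pDC_WT range. The difference was a log2 fold change of 0.59 ± 0.19 (edgeR adjusted p = 0.0302). This call was lost without pDC_TG replicate 1 or 4 or pDC_WT replicate 5, 7 or 8. Ccne1 was at 0 in 5 of 8 pDC_WT libraries and averaged 0.849 ± 0.63 CPM in pDC_TG, and its call (edgeR adjusted p = 0.0476) was lost in 29 of 37 alternatives. None of these cyclins and kinases other than Cdk2 was called without replicate 4.

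The remaining G1 genes were not called. Ccnd2 was at 21.0, 14.2, 23.6 and 67.5 CPM in pDC_TG replicates 1 to 4 and at 13.7, 20.5 and 31.4 CPM in pDC_WT, so that replicate 4 alone was outside the pDC_WT range. Ccnd3 was at 107, 94.1, 146 and 214 CPM against 122, 142 and 181 CPM, with pDC_TG libraries both below and above pDC_WT. The inhibitor gene Cdkn1a was at 3.799, 6.05, 4.56 and 11.5 CPM against 3.67, 4.72 and 9.08 CPM, and again replicate 4 alone was above pDC_WT. Cdkn1b, which encodes the inhibitor p27, was at 31.5, 43.4, 44.9 and 37.6 CPM against 24.7, 33.9 and 38.5 CPM. The edgeR adjusted p-values of Ccnd2, Ccnd3, Cdkn1a and Cdkn1b were 0.205, 0.865, 0.613 and 0.419, and none was called without replicate 4. Cdkn2d, the inhibitor gene that marks plasmacytoid cells here, was at 127, 158, 171 and 173 CPM in pDC_TG, with a log2 fold change of 0.13 ± 0.16 (edgeR adjusted p = 0.709), and 0.08 ± 0.18 (0.881) without replicate 4. The share of Cdkn2d per kilobase among the 4 inhibitors was 79.4% ± 2.13 in pDC_TG (SD, n = 4) and 78.7% ± 2.02 without replicate 4 (n = 3).

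Among the replication genes, 5 of the 6 MCM helicase subunit genes were higher with all libraries and 3 of them, Mcm5, Mcm6 and Mcm7, also without replicate 4. Mcm7 was at 43.4, 47.6, 60.2 and 65.3 CPM in pDC_TG and at 27.6, 30.1 and 33.4 CPM in pDC_WT, with no overlap. Its log2 fold change was 0.83 ± 0.11 (SE; edgeR adjusted p = 1.21e-06), and 0.73 ± 0.11 (2.76e-05) without replicate 4. Mcm6 was at 104, 71.4, 90.3 and 102 CPM against 50.0, 57.3 and 76.0 CPM, with replicate 2 inside the pDC_WT range. It rose by 0.64 ± 0.13 (edgeR adjusted p = 5.04e-04), and by 0.58 ± 0.14 (0.00492) without replicate 4. Mcm5 was at 29.4, 29.6, 43.8 and 52.4 CPM against 7.57, 19.4 and 34.0 CPM, with replicates 1 and 2 inside the pDC_WT range and a log2 fold change of 0.99 ± 0.23 (0.00307) and 0.81 ± 0.25 (0.0318) without replicate 4. The windows of these 3 genes were printed above because they hold an E2F match, and a window of Mcm3 also held one. Mcm3 (39.6 ± 4.61 CPM against 27.2 ± 8.30) and Mcm4 (54.1 ± 6.26 against 36.9 ± 8.37) were called with all libraries only, and had edgeR adjusted p-values of 0.072 and 0.0522 without replicate 4. Mcm2, at 47.9 ± 6.49 against 35.8 ± 4.29 CPM, was not called in the fit of all groups (edgeR adjusted p = 0.0609) but was called in the fit of pDC libraries alone (0.0402).

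Rrm2 was the replication gene with the largest log2 fold change. It was at 3.65, 5.30, 12.4 and 33.4 CPM in pDC_TG and at 0, 1.92 and 5.17 CPM in pDC_WT, so that replicate 1 lay within the pDC_WT range and replicate 4 far above it. The log2 fold change was 2.59 ± 0.46 (SE; edgeR adjusted p = 1.63e-04), and 1.64 ± 0.44 (0.013) without replicate 4. Tyms, the thymidylate synthase gene, averaged 13.5 ± 6.46 CPM in pDC_TG (n = 4) and 7.93 ± 1.76 in pDC_WT (n = 8), and its call (edgeR adjusted p = 0.0154) was lost without replicate 4 (0.28). Tk1, thymidine kinase of the salvage route, was at 2.30, 1.93, 2.63 and 7.31 CPM against 2.85, 3.32 and 10.3 CPM. Without replicate 4, the 3 other libraries were below every pDC_WT library, and Tk1 was lower by a log2 fold change of -1.06 ± 0.33 (edgeR adjusted p = 0.034), whereas with all libraries it was not called (0.489). Nor was it called in the fit of the pDC libraries alone without replicate 4 (0.224). Pcna, Rrm1, Prim1, Pola1, Cdc6, Cdc45, Cdt1 and Gins2 were not called in either fit.

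The mitosis genes had the largest fold changes and the widest spread. Replicate 4 was the highest pDC_TG library for 20 of the 22. Ube2c, the ubiquitin-conjugating enzyme of the anaphase-promoting complex, was at 3.11, 3.52, 5.12 and 14.8 CPM in pDC_TG and at 0.0375, 0.603 and 2.50 CPM in pDC_WT, with no overlap. Its log2 fold change was 3.00 ± 0.48 (SE; edgeR adjusted p = 3.27e-05), and 2.24 ± 0.47 (0.00135) without replicate 4. Birc5 was at 0.921, 2.42, 6.79 and 14.3 CPM against 0.112, 0.701 and 1.76 CPM, with replicate 1 inside the pDC_WT range. It rose by 2.79 ± 0.45 (edgeR adjusted p = 3.44e-05) and by 1.93 ± 0.43 (0.00204). Ccna2 was at 4.87, 6.92, 9.48 and 31.3 CPM against 0.80, 1.77 and 6.46 CPM, a rise of 2.48 ± 0.42 (6.85e-05) and of 1.59 ± 0.38 (0.00512). Cenpa was at 10.1, 11.5, 19.1 and 25.8 CPM against 4.77, 6.97 and 11.7 CPM, a rise of 1.15 ± 0.21 (1.89e-04) and of 0.85 ± 0.21 (0.00587), each second value being without replicate 4. In the fit of pDC libraries alone without replicate 4, these 4 genes had edgeR adjusted p-values of 0.108, 0.122, 0.0939 and 0.0641, in the order given.

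Plk1, Nusap1 and Tpx2 were also called with and without replicate 4 in the fit of all groups. Fitted on the pDC libraries alone they were not, with edgeR adjusted p-values of 0.087, 0.0745 and 0.11 with replicate 4 and 0.251, 0.264 and 0.255 without it. Plk1, the Polo kinase of mitotic entry, was at 0 in 4 of 8 pDC_WT libraries and averaged 2.25 ± 2.12 CPM in pDC_TG (SD, n = 4). Nusap1 and Tpx2, which act on spindle microtubules, averaged 4.20 ± 2.31 and 5.89 ± 2.35 CPM in pDC_TG and 0.919 ± 0.708 and 1.23 ± 1.34 in pDC_WT (n = 8). Ccnb1 and Ccnb2, the B cyclins, averaged 6.79 ± 5.94 and 5.09 ± 4.27 CPM against 2.05 ± 1.19 and 1.14 ± 1.89, and Cdk1 averaged 3.91 ± 2.15 against 1.65 ± 0.798 CPM. Cdc20 averaged 5.24 ± 2.79 against 1.56 ± 1.25 CPM, and the checkpoint kinase gene Bub1 2.49 ± 2.86 against 0.35 ± 0.776 CPM. These 5 were called with all libraries only, with edgeR adjusted p-values of 0.208, 0.254, 0.0725, 0.0938 and 0.169 without replicate 4. Bub1 lost its call in 25 of 37 alternatives and Ccnb2 in 10, among them the fits without pDC_WT replicate 3, 5 or 7 or pDC_TG replicate 3.

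The most used markers of division were not among the called genes. Mki67 was at 0, 0.53, 0.965 and 4.95 CPM in pDC_TG and at 0.0367, 0.85 and 2.93 CPM in pDC_WT, a log2 fold change of 0.37 ± 0.80 (SE; edgeR adjusted p = 0.86) that became -1.31 ± 0.90 (0.436) without replicate 4. Top2a, the DNA decatenating enzyme of dividing cells, was at 2.76, 3.74, 7.15 and 16.0 CPM against 1.24, 3.65 and 12.1 CPM. Its log2 fold change was 0.75 ± 0.39 (0.227), and 0.05 ± 0.39 (0.986) without replicate 4, while leaving out pDC_WT replicate 4, its highest library there, gave an edgeR adjusted p of 0.0139. Foxm1 averaged 5.43 ± 2.61 CPM in pDC_TG (n = 4) and 8.94 ± 3.31 in pDC_WT (n = 8). In the fit of the pDC libraries alone its log2 fold change was -0.72 (edgeR adjusted p = 0.189), and -1.07 (0.0641) without replicate 4. No mitosis gene was called lower with all libraries, by edgeR or DESeq2, and 0 were at an unadjusted p under 0.05. Without replicate 4, edgeR called 0 lower in the fit of all groups, with 1 at an unadjusted p under 0.05.

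In class sums, mitosis genes reached 63.4, 70.9, 109 and 236 CPM in pDC_TG replicates 1 to 4 and 34.2, 44.3 and 80.2 CPM in pDC_WT (lowest, median, highest). The mean of pDC_TG was 2.46 times that of pDC_WT, and 1.66 times without replicate 4, whereas cDC1_WT reached 12.4 times and cDC2_WT 9.71 times. For replication genes, pDC_TG ranged from 457 to 639 CPM and pDC_WT from 350 to 407, without overlap. The mean was 1.43 times that of pDC_WT, and 1.34 times without replicate 4. These sums are descriptions and carry no test. By group means, pDC_TG lay between pDC_WT and both conventional groups for 21 of 22 mitosis, 15 of 17 replication and 6 of 17 G1 members. Without replicate 4 it did so for 19, 14 and 4. With all libraries, pDC_WT had the lowest mean of the 4 groups for 21 mitosis, 15 replication and 7 G1 members. These counts include members that were not called, and the share of all genes with this order was not counted.

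The replication and mitosis genes of pDC_TG were also compared with both conventional groups, where nearly all were lower. In pDC_TG versus cDC1_WT, 47 members were lower and 5 higher, where 26.6% and 27.1% of all genes tested were so called. In pDC_TG versus cDC2_WT, 49 were lower and 4 higher, with 23.9% and 24.3% of all genes. Without replicate 4 the counts were 47 and 5 (24.4% and 25.2% of all genes), and 48 and 4 (21.4% and 21.5%). Cdk1, for example, had a log2 fold change of -3.34 ± 0.33 versus cDC1_WT and -2.52 ± 0.32 versus cDC2_WT (SE; edgeR adjusted p = 6.1e-10 and 8.97e-08), and -3.77 ± 0.35 and -2.96 ± 0.34 without replicate 4. For Mcm7 the log2 fold change was -1.30 ± 0.12 and -1.45 ± 0.12 (7e-11 and 1.08e-11), and -1.39 ± 0.13 and -1.55 ± 0.13 without replicate 4. The higher members were G1 regulators: Cdkn2d, Cdkn2c and Cdk6 in both comparisons, Ccnd1 and Ccnd2 versus cDC1_WT and Cdk4 versus cDC2_WT. Cdkn2d was higher by 3.62 ± 0.16 and 2.52 ± 0.15 (1.85e-18 and 1.01e-14), and by 3.58 ± 0.17 and 2.47 ± 0.16 without replicate 4. Without pDC_TG replicate 2, 2 members were higher than in cDC2_WT. These comparisons share the pDC_TG libraries with that against pDC_WT.

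Further genes of the same processes, taken from lists chosen with earlier results known, were described by counts in pDC_TG versus pDC_WT. The shares of all genes tested that were higher and lower were 7.72% and 7.04%, 5.89% and 5.84% without replicate 4, and 5.41% and 6.76% in the fit of the pDC libraries alone without it. Of 55 other mitosis genes, 23 were higher and 1 was lower, with a median log2 fold change of 1.09, and without replicate 4 these were 10 and 1 (median 0.61). In the fit of the pDC libraries alone without replicate 4 they were 4 and 1. The lower gene was Racgap1 with all libraries, and the lower replication genes were Fen1 and Rfc3, all named after their values were seen. Exons of Fen1 overlap other genes over 84.2% of their length, so its reads are uncertain. Ncaph, a condensin subunit gene, had 3 counts over all 8 pDC_WT libraries and averaged 3.52 ± 4.85 CPM in pDC_TG (SD, n = 4; edgeR adjusted p = 5.01e-09). Stmn1, which encodes a microtubule-destabilising protein, averaged 52.6 ± 28.6 against 13.6 ± 4.66 CPM (log2 fold change 1.96 ± 0.25, SE, 1.07e-06), and Hmgb2, a chromatin protein gene, 111 ± 25.2 against 64.3 ± 10.98 CPM (0.78 ± 0.12, 2.9e-05). Without replicate 4 all 3 were still called. Of 41 other replication genes, 6 were higher and 2 lower, with and without replicate 4. In the fit of the pDC libraries alone without replicate 4, 2 were higher and 2 lower. Among these replication genes Uhrf1, which guides maintenance DNA methylation at the fork, averaged 14.0 ± 11.7 against 2.69 ± 1.51 CPM, and the clamp loader gene Rfc5 88.0 ± 13.2 against 50.2 ± 6.58 CPM. Mcm10, a replication initiation factor gene, had 1 count in pDC_WT and averaged 0.209 ± 0.259 CPM in pDC_TG.

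Of 22 other G1 regulators tested, 0 were called by edgeR with all libraries, with 2 higher and 3 lower at an unadjusted p under 0.05, and DESeq2 called 1 lower. Without replicate 4, edgeR called 0 higher and 1 lower, the inhibitor gene Cdkn1c, named after its values were seen. Of 13 p53 target genes tested, 0 were higher and 3 lower, and 0 and 2 without replicate 4. Btg2, an antiproliferative gene, averaged 827 ± 79.5 CPM in pDC_TG (SD, n = 4) and 1227 ± 119.7 in pDC_WT (n = 8), a log2 fold change of -0.57 ± 0.14 (SE; edgeR adjusted p = 0.00588), and -0.61 ± 0.16 (0.0107) without replicate 4. Ccng1, a cyclin-like p53 target, averaged 181 ± 27.6 against 232 ± 31.7 CPM, and Sesn2, a stress-response gene, 47.7 ± 6.44 against 71.1 ± 16.0 CPM. The call of Ccng1 was lost without pDC_TG replicate 3 or 4 or pDC_WT replicate 7, and that of Sesn2 without pDC_TG replicate 2 or 3 or pDC_WT replicate 3, 6 or 7.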

How the data were processed

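RNA of sorted splenic dendritic cells (4 ng a sample) was amplified with a SMART-Seq v4 kit and sequenced as 75-base single reads on 2 flow cells without strand, per the labels' protocols. FastQC 0.11.4, Trimmomatic 0.35, TopHat2 2.1.0, SAMtools 0.1.18 and build mm10 are named, per the submitters' processing notes; neither a counting tool nor an annotation is given in the sources used here. Values deposited by the authors are raw whole-number read counts per gene symbol; 5 summary lines were left out. Reads outside genes made up 8.23% to 18.7% of each library. PCR copies cannot be told from molecules.

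All 28 libraries entered 1 edgeR 4.0.16 model (R 4.3.3) with TMM factors, filterByExpr (minimum count 10, total 15), a robust quasi-likelihood fit and 6 two-sided comparisons, with Benjamini-Hochberg adjustment over 13159 genes. SE is the absolute log2 fold change divided by the square root of F. Exon lengths and overlaps come from GENCODE M21 (GRCm38). Among members called in pDC_TG versus pDC_WT, exons of Ube2c (22.8% of their length), Cdk4 (19.7%), Mcm7 (12.6%) and Ccna2 (12.5%) also overlap other genes. So do those of Kif20a (29.3%), Ccne2 (17.4%) and Rb1 (14.9%), which were called in other comparisons. DESeq2 1.42.0, other scalings, no filter, fewer groups, WT replicates 1 to 4 or 5 to 8, the replicate block and each library left out were alternatives. No libraries of a group agreed within sampling noise (lowest chi-square per degree of freedom 33.6). On simulated data for pDC_TG versus pDC_WT (13159 genes), 25.4%, 59.7% and 86.4% of 1.5-, 2- and 4-fold changes were recovered, with 6 false among 120 calls. The simulation gave all groups the same spread per gene and changed only genes above 1 CPM in pDC_WT. It therefore cannot show how calls fare for genes whose spread differs between groups or whose level is lower.

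The members and lists were chosen with earlier results of these data known. Named genes are every called member of pDC_TG versus pDC_WT, with values per library for the 4 of smallest adjusted p in each class, Mki67, Top2a, the D cyclins, Cdkn1a and Cdkn1b, up to 6 members of each class between WT groups, up to 3 versus each cDC group and up to 3 called genes of each related list. Those named up to a limit were the ones of smallest p in their comparison. Other members with values were chosen after these values were seen.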

Additional observations from a re-analysis of the deposited data

Results flagged for a closer look

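Of 236 sets of values (each member and each of the 3 class sums in each group of 4 or 8 libraries), 16 held 1 library far from the rest of its group by Dixon's ratio, and chance gives about 1 in 20. In pDC_TG, replicate 4 was high for Tk1 (7.31 CPM, others 1.93 to 2.63), Bub1b (15.9, others 2.46 to 3.93) and Kif11 (7.69, others 2.16 to 3.03), replicate 3 for Cenpe (1.96), and replicate 2 was low for Cdt1 (3.82). In pDC_WT, replicate 4 was high for Top2a (12.1 CPM, others 1.24 to 5.09), Cenpe (1.14) and Kif11 (5.14), and replicate 8 for Bub1 (2.22). In cDC1_WT, replicate 6 was high for Ccnd2 (19.8) and low for Cenpe (0.399), replicate 3 was high for Rbl1 (75.3) and Foxm1 (25.4), and replicate 2 low for Ube2c (17.8). In cDC2_WT, replicate 4 was high for Cdkn2d (43.5) and replicate 8 low for Plk1 (1.92). pDC_WT replicate 4 was the highest pDC_WT library for 10 of the 22 mitosis genes.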

How the results depend on the processing

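Between each WT cDC group and pDC_WT, 18 genes were followed through 36 alternatives, and 9 between pDC_TG and each cDC group. Other members with values there, such as Ccnd3, E2f1, Rrm2, Pcna, Mki67 and E2f8 in the WT comparisons with pDC_WT, were not followed. All genes followed kept their call and direction in all 36 alternatives, and in cDC2_WT versus cDC1_WT 7 of 12 did. The genes followed in these comparisons were the called members of smallest p in each class. Their calls were thus the least likely to be lost, and this says little about the other members. In pDC_TG versus pDC_WT, 11 of 41 named genes kept theirs in every alternative run: the members E2f1, Mcm6 and Mcm7, the uncalled Cdkn1b, and Uhrf1, Rfc5, Ncaph, Stmn1, Hmgb2, Btg2 and Irf8. Members higher in pDC_TG than pDC_WT numbered 24, but 12 in a fit of the 2 groups alone, 12 with WT replicates 1 to 4 and 3 in the fit of the 2 groups without pDC_TG replicate 4. Leaving out 1 library gave 13 (without pDC_TG replicate 4) to 27 (without pDC_TG replicate 1), and members lower numbered 1 to 2, and 2 with WT replicates 5 to 8. Members lower in cDC2_WT than cDC1_WT numbered 7, but 12 in a fit of the 2 groups alone, 2 with WT replicates 1 to 4 and 3 with WT replicates 5 to 8, and 5 to 8 with 1 library left out. Members higher in pDC_TG than cDC2_WT numbered 2 (without pDC_TG replicate 2) to 4. The causes were not tested, apart from the fewer libraries of these fits. Uncalled log2 fold changes changed sign. With WT replicates 5 to 8, Mki67 was -0.033 and Ccnd3 0.047. In the fit of the 2 groups without pDC_TG replicate 4, Mki67 was -1.30, Ccnd2 -0.11 and Cdkn1a -0.15. Leaving out 1 library gave -1.31 to 0.79 for Mki67, -0.12 to 0.82 for Ccnd2 and -0.16 to 0.46 for Cdkn1a, each lowest without pDC_TG replicate 4. For Ccnd3 it gave -0.35 (without pDC_TG replicate 4) to 0.077 (without replicate 2), with 0.035 without replicate 1. Scaling by total counts raised the share of higher genes among all calls from 52.3% to 59.4%.

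With the replicate number as a block, 21 members were higher in pDC_TG than pDC_WT. Same-numbered WT libraries had deviations correlated at 0.02 to 0.11, and pDC_TG and pDC_WT at -0.03 to 0.04. The own number was the best match for 8, 7 and 7 of 8 WT libraries and 0 of 4 pDC_TG libraries. WT libraries of the same number were thus more alike than those of different numbers, for a reason the labels do not give. The main fit did not take the numbers as pairs, so its comparisons between WT groups leave this likeness out. Many mitosis genes had under 1 CPM in pDC_WT, where a count of 3 in 1 library is 0.0923 to 0.161 CPM, which covers counting error only.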
